A study of Mus musculus with 35 samples.

Results

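The 35 genes described here carry the response of a cell to misfolded protein and to a shortage of amino acids. They were taken as a fixed list of symbols, and that list was chosen with earlier results of these data known. Of them, 17 form the ATF4 arm, which holds ATF4, its partners and the amino acid enzymes, transporters and stress effectors it is known to drive. The other 18 form the chaperone arm, which holds the sensors of the endoplasmic reticulum (ER), XBP1, and the chaperones, folding enzymes and degradation factors of the ER lumen and membrane. All 35 were found in each of the 4 tables of 55487 gene rows, and all 35 passed the filter on low counts in every comparison. Ddit3 is listed on 2 rows, of which the one of the Ddit3 gene itself was used.

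The study asked what the micropeptide IAMP, the product of 4930523C07Rik, does in cardiac fibroblasts (CFs), the collagen-secreting cells of the heart. Primary adult mouse CFs received a control siRNA (si-NC) or 1 of 2 siRNAs against IAMP (si-IAMP-1 and si-IAMP-2), and were left untreated, given the inflammatory cytokine IL-17 or given TGF-β, the main inducer of the myofibroblast state. The IL-17 cells had 24 h of siRNA and then 24 h of IL-17. Each of these 9 groups had 3 RNA-Seq libraries. Hearts of 8-week-old C57BL/6 mice heterozygous (Het, the controls) or homozygous (KO) for a frameshift allele of IAMP gave 4 libraries each, so the control hearts carry the allele too. No source used here says whether libraries of 1 CF group came from separate cultures, and p-values may therefore measure technical spread only.

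In an unstressed cell the chaperone BiP, encoded by Hspa5, keeps the sensors IRE1 (Ern1), ATF6 and PERK (Eif2ak3) inactive. IRE1 splices the Xbp1 mRNA and ATF6 is cut in the Golgi, and the resulting factors raise chaperones and ER-associated degradation (ERAD). PERK, like the other eIF2 kinases that sense amino acid shortage, heme and viral RNA, slows translation while letting ATF4 be made. ATF4 then raises serine synthesis, asparagine synthesis, amino acid uptake and, under lasting stress, CHOP (Ddit3) and its pro-death targets. Fibroblasts depend on both arms because they secrete large amounts of collagen, which needs glycine and ER folding capacity.

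A CF library held 104139670 to 119232309 estimated counts and a heart 23497027 to 23857313 counts. The 4930523C07Rik transcript fell 4.71- to 12.9-fold with either siRNA in the 3 tables, and was not called in KO hearts (log2 fold change -0.09). There it stood at 15.2 to 17.3 CPM (counts per 1000000 of the normalized library total) beside 15.9 to 18.8 CPM in Het hearts. The frameshift allele need not lower the transcript. Fibroblast markers summed to 7869.6 to 16482 CPM per CF library. Of the cardiomyocyte markers, Myh6, Actc1 and Myl2 reached at most 0.303 CPM in any CF library, and Tnnt2 ran from 2.84 to 97.3 CPM. In hearts, which are whole tissue, fewer cells of a type and less RNA per cell cannot be told apart.

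Sequence windows from RefSeq (GRCm38.p6), from 250 bases before to 50 bases after a gene start, were available for 31 of the 35 genes, all but Slc7a5, Manf, Hyou1 and Atf6. They are shown because the 2 arms are known to answer to different DNA elements. The ER stress element (ERSE, CCAAT, 9 free bases, CCACG) is read by ATF6 and NF-Y, ERSE-II (ATTGG, 1 free base, CCACG) by ATF6 and XBP1, the UPRE core (TGACGTG) by XBP1 and ATF6, and the C/EBP-ATF response element (CARE, TGATGNAA) by ATF4 with a C/EBP partner. Exact matches were counted on both strands, and no match overlapped another. Psat1 had 2 windows, so the arms were counted by gene and the background by window. The ERSE was found in 6 of 15 chaperone-arm genes with a window, in 0 of 16 such ATF4-arm genes and in 0.119% of all 32851 windows. These 7 matches, read 5′ to 3′ in the direction of the element with its fixed bases in capitals, were the following.
Hspa5, chr2:34772025-34772043, plus strand: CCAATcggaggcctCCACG
Hsp90b1, chr10:86705638-86705656, minus strand: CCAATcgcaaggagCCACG
Hsp90b1, chr10:86705533-86705551, plus strand: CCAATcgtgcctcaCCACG
Calr, chr8:84847075-84847093, plus strand: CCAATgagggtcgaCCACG
Pdia6, chr12:17266491-17266509, plus strand: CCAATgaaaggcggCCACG
Dnajc3, chr14:118937827-118937845, plus strand: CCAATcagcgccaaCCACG
Creld2, chr15:88819520-88819538, minus strand: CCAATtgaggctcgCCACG

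The CARE was found in 4 of 16 ATF4-arm genes (Asns, Chac1, Pck2 and Trib3), in 1 of 15 chaperone-arm genes (Herpud1) and in 3.97% of all windows. In Trib3 it lay after the gene start, from base 15 to base 22. Herpud1 was the only one of the 31 genes to hold elements of both kinds, a CARE and the only ERSE-II, an element found in 0.0365% of all windows. The UPRE core was found in Hspa5 and in no other of the 31, and in 2.01% of all windows. The 250 bases before the start of 2 genes of each arm are given on the strand of the gene, with the matched bases in capitals.
Hspa5, chr2:34771840-34772089, plus strand: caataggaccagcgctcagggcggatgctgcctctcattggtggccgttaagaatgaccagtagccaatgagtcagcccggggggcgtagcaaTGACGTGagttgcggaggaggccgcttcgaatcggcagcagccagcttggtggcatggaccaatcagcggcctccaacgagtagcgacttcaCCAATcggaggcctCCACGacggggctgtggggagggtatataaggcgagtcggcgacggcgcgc
Herpud1, chr8:94386179-94386428, plus strand: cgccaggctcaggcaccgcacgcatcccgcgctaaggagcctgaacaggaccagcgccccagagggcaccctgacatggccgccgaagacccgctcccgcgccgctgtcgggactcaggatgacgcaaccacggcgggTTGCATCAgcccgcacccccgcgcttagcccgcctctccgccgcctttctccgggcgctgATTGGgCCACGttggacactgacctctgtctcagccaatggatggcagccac
Chac1, chr2:119350992-119351241, plus strand: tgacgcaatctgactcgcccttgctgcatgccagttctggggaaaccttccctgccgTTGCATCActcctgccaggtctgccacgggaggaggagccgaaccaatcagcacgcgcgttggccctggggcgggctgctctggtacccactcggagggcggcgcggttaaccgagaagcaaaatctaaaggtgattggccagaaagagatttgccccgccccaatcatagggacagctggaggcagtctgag
Asns, chr6:7693210-7693459, minus strand: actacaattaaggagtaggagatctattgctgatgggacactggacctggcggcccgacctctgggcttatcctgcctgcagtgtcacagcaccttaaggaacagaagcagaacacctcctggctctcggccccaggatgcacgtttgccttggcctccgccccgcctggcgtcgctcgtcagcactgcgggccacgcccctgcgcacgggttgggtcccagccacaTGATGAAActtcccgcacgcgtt
The bases of Chac1 and Herpud1 in capitals as TTGCATCA are the CARE read on the opposite strand. A match is a stretch of letters and was not tested as a binding site, and a window without one may be served by elements elsewhere.

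With IAMP knocked down, most calls in the ATF4 arm were lower and most in the chaperone arm higher. A gene was called at a Benjamini-Hochberg adjusted p of at most 0.05 over all genes tested by edgeR's quasi-likelihood test, with a change of at least 1.5-fold. Over the 6 comparisons of an IAMP siRNA with si-NC there were 32 calls on 15 of the 35 genes. In the ATF4 arm 16 calls were lower and 1 was higher, and in the chaperone arm 14 were higher and 1 was lower. Lower calls were 15.7% of the 102 tests of ATF4-arm genes, beside 8.12% of the tests of all genes, and higher calls were 13.0% of the 108 tests of chaperone-arm genes, beside 5.26%. No gene was called higher in 1 comparison and lower in another. Both siRNAs of a table are set against the same si-NC libraries, and each gene is counted in all 6 comparisons, so the tests are not independent. Psat1 gave 5 of the 16 lower calls of the ATF4 arm, and Hspa5 gave 4 of the 14 higher calls of the chaperone arm. The comparisons also differed. With si-IAMP-1 and si-IAMP-2 the ATF4-arm medians were -0.08 and -0.32 (untreated), 0.01 and -0.32 (IL-17) and -0.38 and 0.10 (TGF-β) on the log2 scale.

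**Figure D1:**
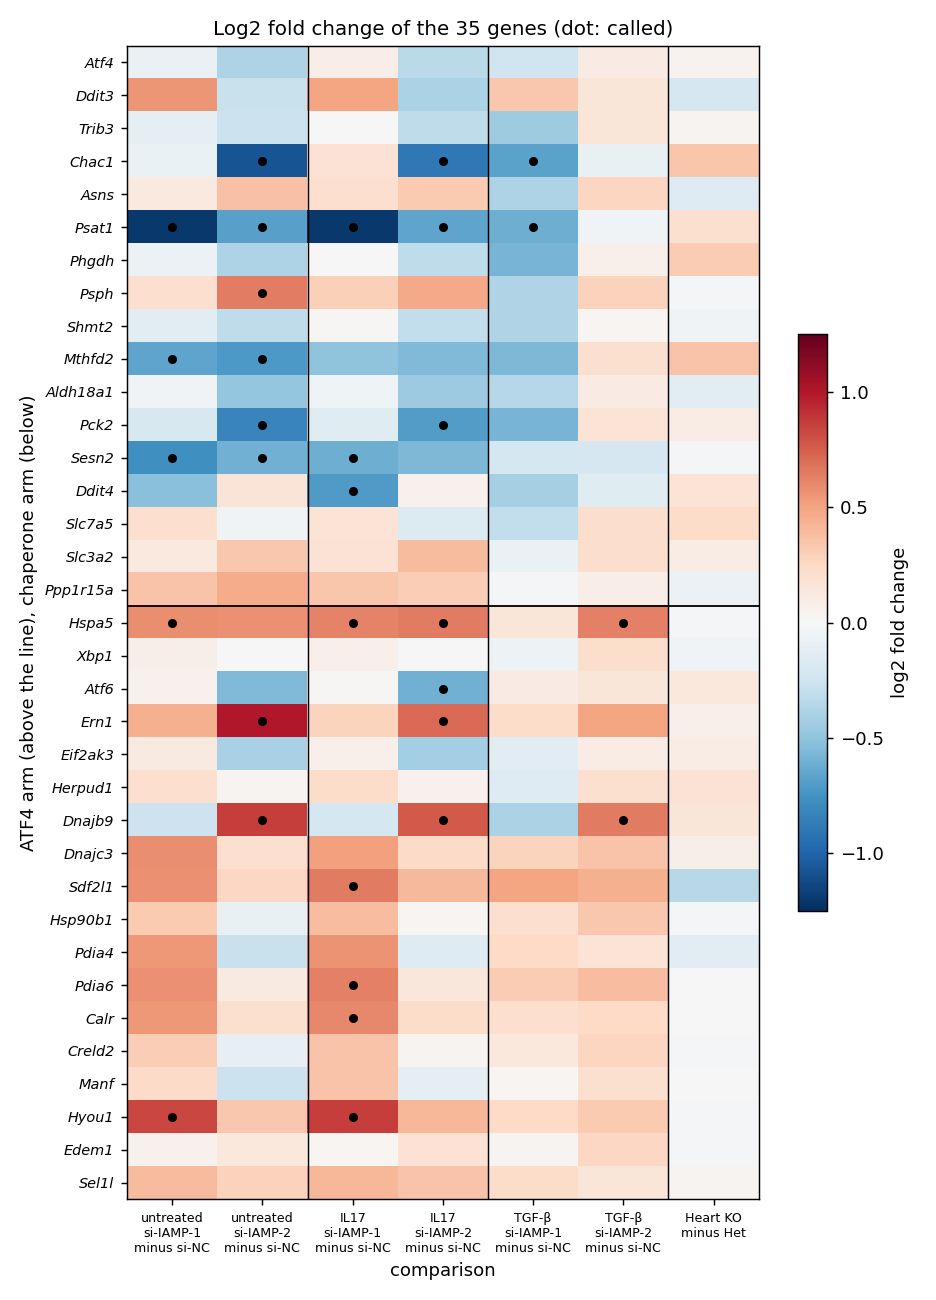
Log2 fold change of each of the 35 genes (rows, ATF4 arm above the line and chaperone arm below it) in the 6 comparisons of an IAMP siRNA with si-NC and in KO against Het hearts (columns), with a dot where the gene was called. Calls in the ATF4 arm are blue but for Psph, calls in the chaperone arm are red but for Atf6, and the heart column has no dot.

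The arms were summarised in each library as the median over an arm's genes of the log2 ratio of CPM to the mean of the si-NC libraries of the same table. In untreated CFs the chaperone arm stood at 0.35 to 0.40 in the 3 si-IAMP-1 libraries, at 0.14 to 0.15 in the si-IAMP-2 libraries and at -0.02 to 0.02 in the si-NC libraries. The ATF4 arm stood at -0.08 to -0.06 with si-IAMP-1, at -0.36 to -0.30 with si-IAMP-2 and at -0.03 to 0.05 with si-NC. The chaperone arm therefore lay further above control with si-IAMP-1, and the ATF4 arm further below it with si-IAMP-2. The gap between the arms (chaperone minus ATF4) was 0.42 to 0.48 with si-IAMP-1 and 0.45 to 0.50 with si-IAMP-2, and the ranges of the 2 siRNAs overlapped. They did not overlap under IL-17, at 0.28 to 0.36 and 0.44 to 0.50, or under TGF-β, where the order was the other way round at 0.54 to 0.63 and 0.11 to 0.20.

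**Figure D2:**
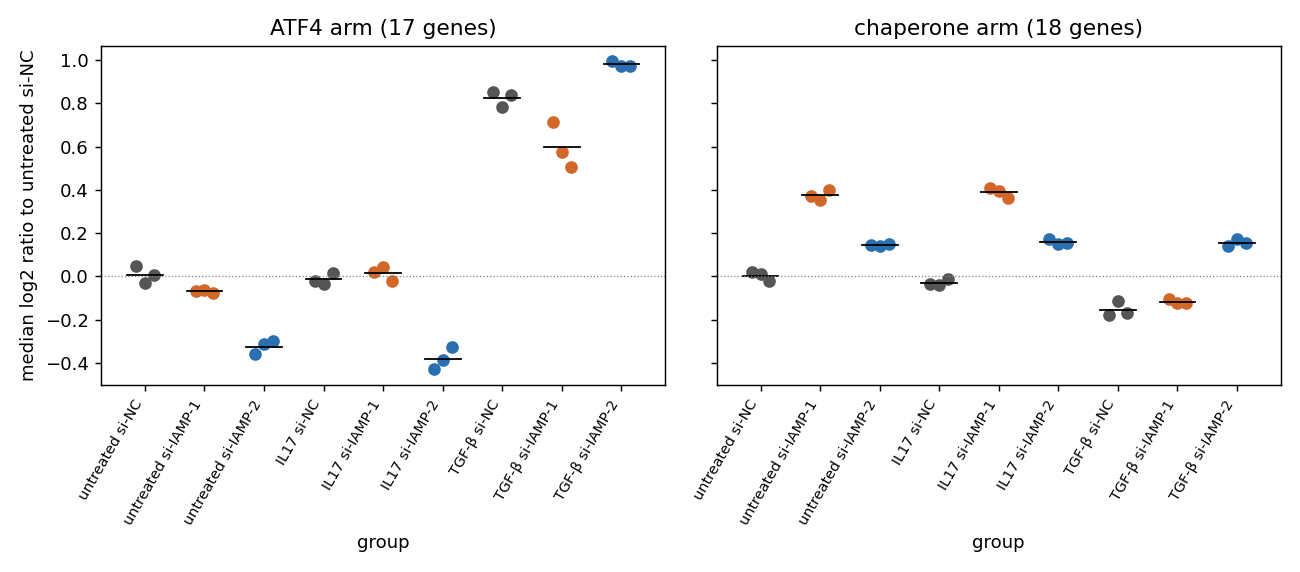
Each point is 1 CF library, placed by the median over the genes of an arm of the log2 ratio of its CPM to the mean of untreated si-NC (vertical axis), in the 9 groups (horizontal axis), with bars at the group means. The ATF4 arm sits between 0.50 and 0.99 in all TGF-β libraries and between -0.43 and 0.05 in the others, while the chaperone arm stays between -0.18 and 0.41.

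With si-IAMP-1 the calls of the chaperone arm were folding proteins of the ER lumen. In untreated CFs, Hspa5 and Hyou1 were called higher and no chaperone-arm gene was called lower, so 2 of 18 were higher where 5.42% of all genes were higher and 6.65% lower. A further 11 of the 18 were past the adjusted p in the upward direction but changed by less than 1.5-fold, so that 13 of 18 passed it beside 19.5% of all genes, and the median of the arm was 0.36 on the log2 scale beside -0.02 over all genes tested. Hspa5 stood at 812, 743 and 768 CPM with si-NC, at 1182, 1157 and 1161 CPM with si-IAMP-1 and at 1180.4, 1159 and 1153 CPM with si-IAMP-2. All 6 knockdown libraries lay above all 3 controls, and the 2 siRNAs overlapped. The log2 fold change of Hspa5 was 0.59 ± 0.03 (SE) with si-IAMP-1 (adjusted p = 2.8e-10) and 0.57 ± 0.03 with si-IAMP-2 (adjusted p = 1.5e-10), just past and just short of 1.5-fold. The call with si-IAMP-1 was lost, at 0.56 to 0.58, with DESeq2's size factors, in DESeq2, with a minimum of 10 counts in every library, with the estimated counts divided by 6, and without si-IAMP-1 replicate 1, si-NC replicate 2 or si-NC replicate 3. Hyou1, the ER chaperone of the HSP110 family that helps BiP release its nucleotide, rose from 167 ± 5.31 CPM (mean ± SD, n = 3) with si-NC to 301 ± 3.12 CPM with si-IAMP-1, a log2 fold change of 0.84 ± 0.03, and stood at 214 ± 4.21 CPM with si-IAMP-2, a log2 fold change of 0.34 ± 0.03 that was not called.

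IL-17-treated CFs gave a similar picture in separate libraries. There Hspa5, Hyou1, Sdf2l1, Pdia6 and Calr were called higher with si-IAMP-1, 5 of 18 chaperone-arm genes where 5.58% of all genes were higher and 7.97% lower, and the median of the arm was 0.37. Hspa5 stood at 829, 807 and 802 CPM with si-NC, at 1303, 1231 and 1249 CPM with si-IAMP-1 and at 1278, 1333 and 1279 CPM with si-IAMP-2. Neither siRNA overlapped si-NC, and the log2 fold changes were 0.62 ± 0.03 and 0.65 ± 0.03. Calr encodes calreticulin, the lectin chaperone of glycoproteins, and its log2 fold change with si-IAMP-1 was 0.60 ± 0.03 under IL-17 and 0.54 ± 0.03 untreated, which was not called. Hsp90b1, the ER form of HSP90 known as GRP94, was the other abundant chaperone of the arm, and it did not reach 1.5-fold in any of the 6 comparisons, with log2 fold changes between -0.10 and 0.38. Other genes moved with the siRNAs under IL-17 as well, since 11 of 12 interferon-stimulated genes were lower with si-IAMP-1 and 12 of 12 with si-IAMP-2. Fibroblast markers summed to 10387 to 10824 CPM with si-IAMP-1 beside 8240.0 to 8358 CPM with si-NC. With si-IAMP-1, 0 of the 7 fibroblast markers were called under IL-17 or in untreated CFs. In untreated CFs they summed to 11138 to 11452 CPM with si-IAMP-1, 8374 to 8511 CPM with si-NC and 7869.6 to 8097.7 CPM with si-IAMP-2, and cardiomyocyte markers, mainly Tnnt2, to 42.6 to 47.6, 90.6 to 98.2 and 28.3 to 33.3 CPM. Their part in the chaperone and ATF4-arm changes was not tested.

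The 7 chaperone-arm genes whose window held an ERSE or ERSE-II had a median log2 fold change with si-IAMP-1 of 0.54 in untreated CFs (range 0.21 to 0.59) and of 0.51 under IL-17. The 8 without either had medians of 0.25 (range -0.26 to 0.58) and 0.17. With si-IAMP-2 the order was the other way round, at 0.12 beside 0.20 in untreated CFs and 0.14 beside 0.27 under IL-17. Under TGF-β it was not, at 0.33 beside 0.24 with si-IAMP-2 and 0.21 beside 0.13 with si-IAMP-1, and the ranges overlapped throughout.

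Sdf2l1, a component of the BiP complexes that keep unfolded proteins from aggregating, was among the lower-abundance members. It stood at 16.6, 17.6 and 16.4 CPM with si-NC, at 24.2, 27.3 and 24.2 CPM with si-IAMP-1 and at 20.7, 20.99 and 19.8 CPM with si-IAMP-2 in untreated CFs. In IL-17-treated CFs the values were 15.02, 17.6 and 15.5 CPM with si-NC, 25.8, 24.2 and 25.8 CPM with si-IAMP-1 and 21.1, 21.6 and 21.9 CPM with si-IAMP-2. In both tables the order was si-NC, si-IAMP-2, si-IAMP-1 with no overlap, and the change was called with si-IAMP-1 under IL-17 only, at a log2 fold change of 0.65 ± 0.06 beside 0.58 ± 0.06 in untreated CFs. Dnajc3, the BiP co-chaperone p58IPK, was short of the fold in all 6 comparisons, with its highest log2 fold change, 0.58 ± 0.03, in untreated CFs with si-IAMP-1.

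Dnajb9, the co-chaperone ERdj4 that brings BiP to IRE1, lay on opposite sides of si-NC with the 2 siRNAs. In untreated CFs it stood at 44.4, 47.6 and 44.6 CPM with si-NC, at 39.5, 39.2 and 36.1 CPM with si-IAMP-1 and at 80.1, 86.3 and 86.2 CPM with si-IAMP-2. It rose 1.82-fold with si-IAMP-2 and had a log2 fold change of -0.26 ± 0.05 with si-IAMP-1, which was not called. In IL-17-treated CFs the values were 50.96, 51.7 and 47.05 CPM, 42.7, 43.5 and 42.8 CPM and 86.8, 85.1 and 85.96 CPM in the same order of siRNAs, and under TGF-β they were 53.6, 57.7 and 51.1 CPM, 40.8, 40.7 and 41.8 CPM and 81.7, 85.4 and 86.5 CPM. In all 3 tables the libraries of si-IAMP-2 lay above and those of si-IAMP-1 below every si-NC library. Dnajb9 was the only gene of the 35 called with si-IAMP-2 against si-NC in all 3 tables.

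Among the sensors, Ern1 rose with si-IAMP-2, from 73.3 ± 1.79 to 149 ± 8.21 CPM in untreated CFs (2.00-fold) and from 97.7 ± 2.68 to 162 ± 4.70 CPM under IL-17 (1.64-fold). With si-IAMP-1 its log2 fold changes were 0.45 ± 0.04 and 0.28 ± 0.03, neither of them called. Atf6 went the other way with the same siRNA. It stood at 129, 129.9 and 115 CPM with si-NC, at 132, 126 and 131 CPM with si-IAMP-1 and at 83.4, 89.3 and 86.3 CPM with si-IAMP-2 in untreated CFs. Under IL-17 it stood at 119, 112 and 116 CPM, 119, 120.5 and 113 CPM and 77.3, 75.8 and 78.2 CPM, and only si-IAMP-2 lay apart from si-NC. The log2 fold change of Atf6 with si-IAMP-2 was -0.60 ± 0.03 under IL-17, the single lower call of the chaperone arm, and -0.55 ± 0.04 in untreated CFs, just short of the fold. Eif2ak3 had log2 fold changes of -0.41 ± 0.04 and -0.42 ± 0.05 with si-IAMP-2, past the adjusted p and short of the fold.

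Xbp1 gave no call in any comparison. Its CPM in untreated CFs was 129, 119 and 124 with si-NC, 134, 132 and 128 with si-IAMP-1 and 127, 130.2 and 122 with si-IAMP-2. Under IL-17 it was 129, 126 and 129 with si-NC, 131, 132 and 140.0 with si-IAMP-1 and 132, 128 and 127 with si-IAMP-2. In untreated CFs the groups overlapped, and under IL-17 si-IAMP-1 lay above si-NC. The gene totals do not separate the spliced form, which makes the active factor, from the unspliced form, so they carry no information on IRE1 activity.

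The secreted ER stress proteins and the ERAD genes changed by less than 1.5-fold with either siRNA in all 3 tables. Creld2, a secreted disulfide-containing chaperone, stood at 36.1, 33.2 and 38.3 CPM with si-NC, 43.8, 44.5 and 45.95 CPM with si-IAMP-1 and 34.8, 34.7 and 32.3 CPM with si-IAMP-2 in untreated CFs. With IL-17 added it stood at 33.9, 34.5 and 34.2 CPM, 44.2, 44.2 and 43.9 CPM and 36.1, 35.4 and 35.3 CPM, so that si-IAMP-1 lay above si-NC in both tables, with log2 fold changes of 0.31 ± 0.05 and 0.36 ± 0.04. Herpud1, a membrane protein of the HRD1 degradation complex, stood at 35.8, 37.2 and 37.1 CPM, 45.8, 41.3 and 40.5 CPM and 37.2, 39.00 and 38.03 CPM in untreated CFs. Under IL-17 its values were 40.4, 39.6 and 39.8 CPM, 46.9, 48.6 and 45.5 CPM and 41.1, 42.8 and 42.6 CPM. The log2 fold changes of Herpud1 with si-IAMP-1 were 0.21 ± 0.05 and 0.23 ± 0.04, past the adjusted p, and those with si-IAMP-2 were 0.03 ± 0.05 and 0.06 ± 0.04.

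**Figure D3:**
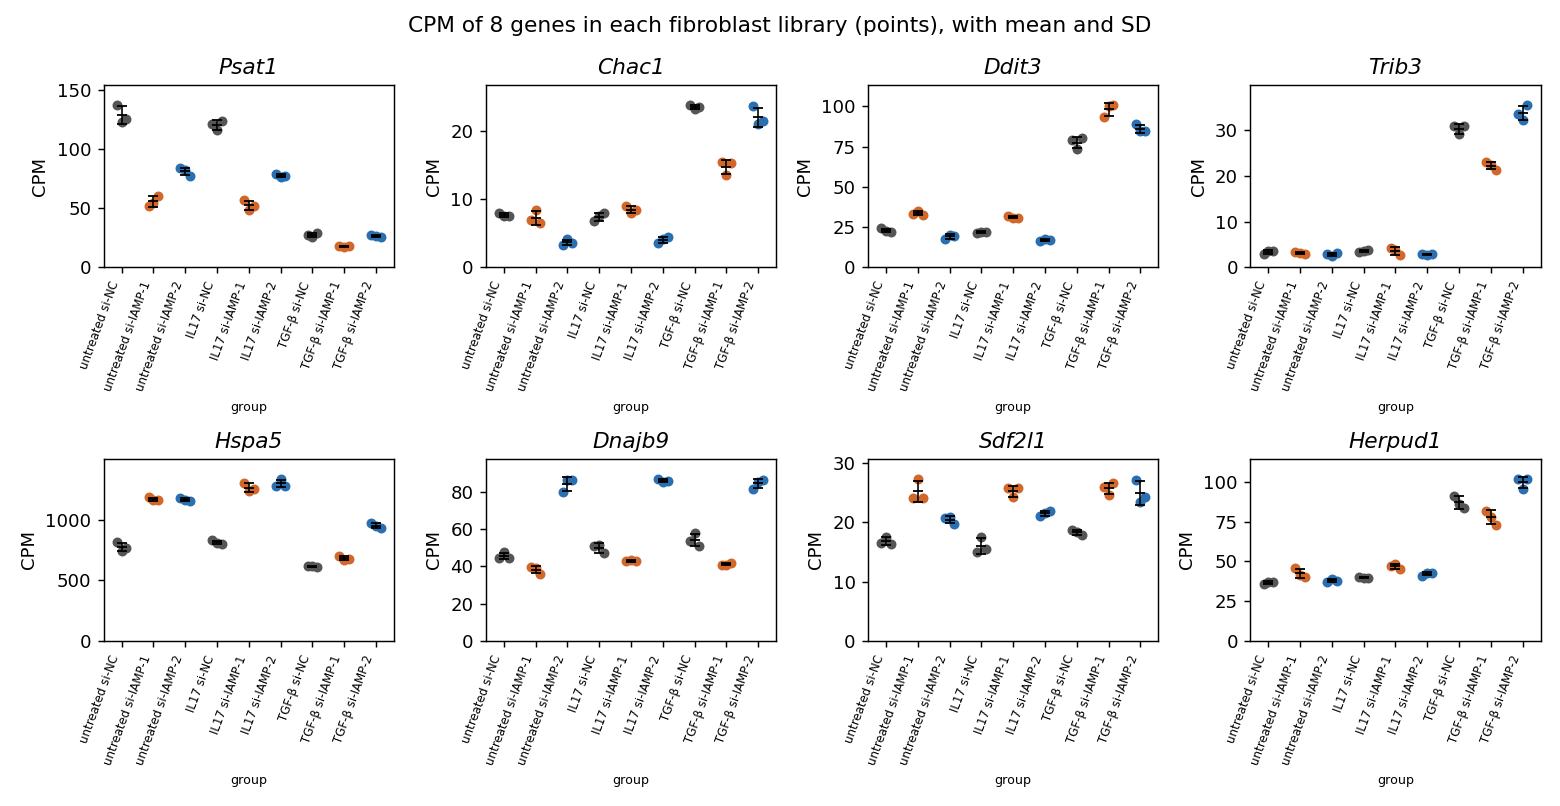
CPM (vertical axes, from 0) of 8 of the genes in each CF library (points) of the 9 groups (horizontal axes; grey si-NC, orange si-IAMP-1, blue si-IAMP-2), with bars for the mean and SD of 3 libraries. Psat1 falls with both siRNAs outside TGF-β, Dnajb9 is high with si-IAMP-2 in all tables, and Trib3 reaches at most 4.28 CPM outside TGF-β.

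In the ATF4 arm all calls against si-NC but that of Psph were lower. With si-IAMP-1 in untreated CFs, Psat1, Mthfd2 and Sesn2 fell, 3 of 17 where 6.65% of all genes fell. With si-IAMP-2, Chac1, Psat1, Mthfd2, Pck2 and Sesn2 fell and Psph rose, 5 of 17 lower and 1 higher where 13.1% and 8.00% of all genes were. In IL-17-treated CFs, Psat1, Sesn2 and Ddit4 fell with si-IAMP-1 and Chac1, Psat1 and Pck2 fell with si-IAMP-2, beside backgrounds of 7.97% and 13.7% of all genes lower. Hspa5, Ern1 and Dnajb9, 3 of 18 chaperone-arm genes, rose with si-IAMP-2 under IL-17, where 8.06% of all genes did. The median of the ATF4 arm with si-IAMP-2 was -0.32 in both tables, beside -0.02 over all genes in each.

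In both the untreated and the IL-17 table, Mthfd2, Sesn2 and Psat1 lay below si-NC with both siRNAs. Psat1, the aminotransferase of the serine synthesis pathway, was the one gene of the 35 called lower with both siRNAs in both tables. It stood at 137, 123 and 126 CPM with si-NC, at 52.2, 54.8 and 60.8 CPM with si-IAMP-1 and at 83.8, 82.4 and 77.5 CPM with si-IAMP-2 in untreated CFs. Its values under IL-17 were 122, 116 and 124 CPM with si-NC, 56.8, 48.9 and 52.1 CPM with si-IAMP-1 and 79.2, 76.3 and 77.4 CPM with si-IAMP-2. The 3 groups did not overlap in either table. It fell 2.31-fold with si-IAMP-1 and 1.61-fold with si-IAMP-2 in untreated CFs (adjusted p = 3.6e-11 and 1.2e-08).

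The enzymes on either side of Psat1 in the same pathway were not called lower in any table. Under TGF-β with si-IAMP-1 both lay below si-NC, at log2 fold changes of -0.58 for Phgdh and -0.38 for Psph. Phgdh, which makes the substrate of Psat1, stood at 122, 123 and 124 CPM with si-NC, 117, 118 and 117 CPM with si-IAMP-1 and 95.8, 98.9 and 91.6 CPM with si-IAMP-2 in untreated CFs. Under IL-17 it stood at 112, 114 and 106 CPM, 112, 113 and 108 CPM and 89.4, 93.7 and 86.5 CPM. The si-IAMP-2 libraries lay below si-NC in both tables and the si-IAMP-1 libraries in untreated CFs only, and si-IAMP-2 gave log2 fold changes of -0.39 ± 0.03 and -0.32 ± 0.04 that were short of the fold. Psph, which takes the product of Psat1 to serine, rose 1.56-fold with si-IAMP-2 in untreated CFs and had a log2 fold change of 0.21 ± 0.07 with si-IAMP-1. Mthfd2, the mitochondrial enzyme of folate one-carbon metabolism, fell from 43.3 ± 3.16 to 27.5 ± 1.41 and 26.7 ± 1.21 CPM in untreated CFs, and under IL-17 its log2 fold changes of -0.50 ± 0.06 and -0.55 ± 0.06 were short of the fold. Shmt2, which splits serine in mitochondria, and Aldh18a1, which starts proline synthesis, gave no call against si-NC in any table.

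Asns, the asparagine synthetase, lay above si-NC rather than below it. Its CPM in untreated CFs was 58.8, 54.3 and 55.96 with si-NC, 61.8, 62.5 and 60.3 with si-IAMP-1 and 76.2, 76.3 and 67.6 with si-IAMP-2. Under IL-17 it was 54.6, 56.6 and 55.2, 64.7, 66.96 and 61.9 and 72.9, 71.01 and 67.3 in the same order of siRNAs. All knockdown libraries of both tables lay above their controls, with log2 fold changes from 0.12 to 0.36, none of them called. Pck2, the mitochondrial enzyme that makes phosphoenolpyruvate, fell with si-IAMP-2 to 20.2 ± 0.785 CPM from 35.2 ± 4.67 CPM in untreated CFs and to 19.7 ± 0.591 CPM from 31.5 ± 0.867 CPM under IL-17. Slc7a5 and Slc3a2, the subunits of an amino acid exchanger of the plasma membrane, gave no call, with log2 fold changes between -0.31 and 0.39 over the 6 comparisons.

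Of the regulators, none was called with either siRNA in any of the 3 tables. Atf4 stood at 112, 104 and 114 CPM with si-NC, 103, 108 and 102 CPM with si-IAMP-1 and 81.4, 86.4 and 88.7 CPM with si-IAMP-2 in untreated CFs. With IL-17 added it stood at 110.4, 111 and 111 CPM, 110.3, 122 and 122 CPM and 81.02, 93.3 and 91.3 CPM. In both tables si-IAMP-2 lay below every si-NC library, at log2 fold changes of -0.39 ± 0.04 and -0.34 ± 0.05. ATF4 is controlled mainly at translation, so its mRNA is a partial measure of it.

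Ddit3, which encodes the transcription factor CHOP, split the siRNAs. It stood at 24.3, 22.7 and 21.97 CPM with si-NC, at 33.4, 35.1 and 32.7 CPM with si-IAMP-1 and at 17.6, 20.3 and 19.8 CPM with si-IAMP-2 in untreated CFs. Its values under IL-17 were 21.5, 22.3 and 22.1 CPM, 31.8, 30.95 and 30.6 CPM and 16.4, 17.5 and 16.7 CPM. In both tables si-IAMP-1 lay above and si-IAMP-2 below si-NC, with log2 fold changes of 0.55 ± 0.06 and -0.27 ± 0.06 in untreated CFs and of 0.49 ± 0.05 and -0.40 ± 0.05 under IL-17, all past the adjusted p and short of the fold. Trib3, the pseudokinase that is a target of ATF4 and CHOP, was near the bottom of the range in both tables. It stood at 2.97, 3.62 and 3.63 CPM with si-NC, 3.28, 3.22 and 3.02 CPM with si-IAMP-1 and 3.02, 2.44 and 3.13 CPM with si-IAMP-2 in untreated CFs, and at 3.41, 3.63 and 3.72 CPM, 4.28, 3.79 and 2.69 CPM and 2.92, 2.79 and 3.01 CPM under IL-17. Only si-IAMP-2 under IL-17 lay apart from si-NC, below it, with a log2 fold change of -0.32 ± 0.15. Ppp1r15a, the eIF2 phosphatase subunit GADD34 that ends the response, had the highest mean of the ATF4 arm over the 6 comparisons, 0.26 on the log2 scale. It stood at 25.7, 23.6 and 25.8 CPM, 30.7, 32.7 and 33.1 CPM and 32.9, 38.7 and 33.6 CPM in untreated CFs and at 28.7, 26.6 and 26.7 CPM, 34.9, 36.7 and 33.6 CPM and 34.04, 33.6 and 35.5 CPM under IL-17, all knockdown libraries above their controls.

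Chac1 was called lower with si-IAMP-2, Sesn2 with both siRNAs in untreated CFs and Ddit4 with si-IAMP-1 under IL-17. Chac1, the glutathione-degrading enzyme that is a target of ATF4 and CHOP, stood at 7.97, 7.63 and 7.53 CPM with si-NC, at 6.94, 8.50 and 6.51 CPM with si-IAMP-1 and at 3.30, 4.12 and 3.67 CPM with si-IAMP-2 in untreated CFs. Under IL-17 it stood at 6.80, 7.53 and 8.02 CPM, 9.00, 7.95 and 8.50 CPM and 3.63, 4.14 and 4.42 CPM. The si-IAMP-2 libraries lay below all others in both tables, 2.12-fold and 1.86-fold under si-NC, while si-IAMP-1 overlapped si-NC in each. Sesn2, the leucine sensor that restrains mTORC1, fell from 60.7 ± 0.834 CPM to 35.9 ± 2.29 CPM with si-IAMP-1 and 40.6 ± 1.48 CPM with si-IAMP-2 in untreated CFs. Ddit4, another inhibitor of mTORC1, was called in 1 of the 6 comparisons, with si-IAMP-1 under IL-17, from 53.5 ± 0.982 to 32.9 ± 1.10 CPM, with a log2 fold change of -0.52 ± 0.05 in untreated CFs. With si-IAMP-2 it lay above si-NC in untreated CFs, at 0.16 ± 0.05, and overlapped it under IL-17, at 0.06 ± 0.05, neither of them called.

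A direct contrast of si-IAMP-2 with si-IAMP-1 leaves the si-NC libraries aside. In untreated CFs, Dnajb9 and Ddit4 were higher and Ddit3, Chac1, Pck2, Atf6 and Pdia4 lower with si-IAMP-2 than with si-IAMP-1, 2 and 5 of 35 where 5.72% and 10.1% of all genes were. Under IL-17 the same list was called but for Pck2, so 2 were higher and 4 lower where 6.07% and 9.62% of all genes were. In both tables these counts are near the shares of all genes. The difference was 1.12 ± 0.05 for Dnajb9, -0.83 ± 0.03 for Pdia4 and -0.82 ± 0.06 for Ddit3 on the log2 scale in untreated CFs. Pdia4, a disulfide isomerase of the BiP complex, stood at 277 ± 2.81 CPM with si-IAMP-1 and 157 ± 3.29 CPM with si-IAMP-2, above and below the 189 ± 3.59 CPM of si-NC. The chaperone arm had a median of -0.35 for si-IAMP-2 minus si-IAMP-1 in untreated CFs and of -0.30 under IL-17. Transcript left over differed as well, since 4930523C07Rik stood at 2.52 to 3.51 CPM with si-IAMP-1 and at 1.77 to 1.89 CPM with si-IAMP-2 in untreated CFs, and its part in these differences was not tested.

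None of the 35 genes was called for IL-17 itself. In edgeR, 0 of 35 were called for IL-17 minus untreated within si-NC, si-IAMP-1 or si-IAMP-2, where 2.09%, 2.08% and 1.92% of all genes were higher and 0.984%, 1.64% and 1.31% lower. DESeq2 called 0 as well, and 12, 18 and 14 of the 35 had an unadjusted p under 0.05, beside 22.0%, 24.0% and 21.9% of all genes. The largest log2 change within si-NC was that of Ern1, 0.41 ± 0.04 (adjusted p = 3.0e-09), from 73.3 ± 1.79 to 97.7 ± 2.68 CPM. A difference in siRNA effect between the 2 tables was tested as well. For this test a difference of at least 2-fold between fold changes was asked for, and 0 of 35 genes passed it with si-IAMP-1 or si-IAMP-2 (0.170% and 0.174% of all genes did), with 5 and 4 at an unadjusted p under 0.05 (beside 11.1% and 9.41% of all genes) and 0 in DESeq2. Over the 35 genes these differences ran from -0.19 to 0.26 with si-IAMP-1 and from -0.29 to 0.19 with si-IAMP-2 on the log2 scale. Each stimulus was a separate table, and stimulus and experiment cannot be told apart.

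The TGF-β table differed from the untreated one by far more, and the arms parted. Within si-NC, 11 of 17 ATF4-arm genes were higher and 1 was lower, and 1 of 18 chaperone-arm genes was higher and 3 were lower, where 17.7% of all genes were higher and 16.1% lower. The median was 0.81 in the ATF4 arm and -0.15 in the chaperone arm on the log2 scale, beside 0.02 over all genes. Trib3 stood at 2.97, 3.62 and 3.63 CPM in untreated and 30.8, 29.00 and 30.9 CPM in TGF-β-treated si-NC libraries, 8.88-fold higher. Ddit3 stood at 78.8, 73.4 and 80.2 CPM, Chac1 at 23.9, 23.4 and 23.6 CPM and Atf4 at 272, 259 and 258 CPM under TGF-β with si-NC. These were 3.37-fold, 3.06-fold and 2.38-fold above the untreated si-NC libraries, with no overlap. All 4 regulators of the arm rose, Ppp1r15a among them at 66.2, 60.6 and 62.6 CPM.

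Of the metabolic genes, Asns (141, 130.2 and 133 CPM), Psph, Shmt2, Aldh18a1, Pck2 and Slc3a2 rose within si-NC, by log2 fold changes between 0.76 and 1.26. Psat1 fell against this trend, to 27.8, 25.5 and 28.7 CPM under TGF-β, 4.70-fold below untreated si-NC (log2 fold change -2.23 ± 0.06). Phgdh stood at 126, 115 and 114 CPM, with a log2 fold change of -0.06 ± 0.04 that was not past the adjusted p. Of the 3 enzymes of serine synthesis, Psph rose, Phgdh was not called and Psat1 fell. The 4 ATF4-arm genes with a CARE (Asns, Chac1, Pck2 and Trib3) had a median log2 fold change of 1.44 in si-NC (range 1.19 to 3.15), beside 0.78 (range -2.23 to 1.75) for the 12 without one, and the ranges overlapped.

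In the chaperone arm, Herpud1 alone rose within si-NC, to 91.2, 86.2 and 83.5 CPM under TGF-β (2.37-fold). It is also the chaperone-arm gene whose window held a CARE, and the part of this element in the rise was not tested. Atf6, Pdia6 and Edem1 fell, and Atf6 stood at 63.7, 65.6 and 67.1 CPM under TGF-β beside 129, 129.9 and 115 CPM untreated. Hspa5 stood at 615, 618 and 609 CPM, below every untreated si-NC library, with a log2 fold change of -0.34 ± 0.03 that was past the adjusted p and short of the fold. Xbp1 stood at 157, 142 and 149.9 CPM, Sdf2l1 at 18.7, 18.4 and 17.9 CPM and Creld2 at 42.5, 41.7 and 45.04 CPM, with log2 fold changes of 0.27 ± 0.04, 0.12 ± 0.06 and 0.26 ± 0.05, none of them called.

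**Figure D4:**
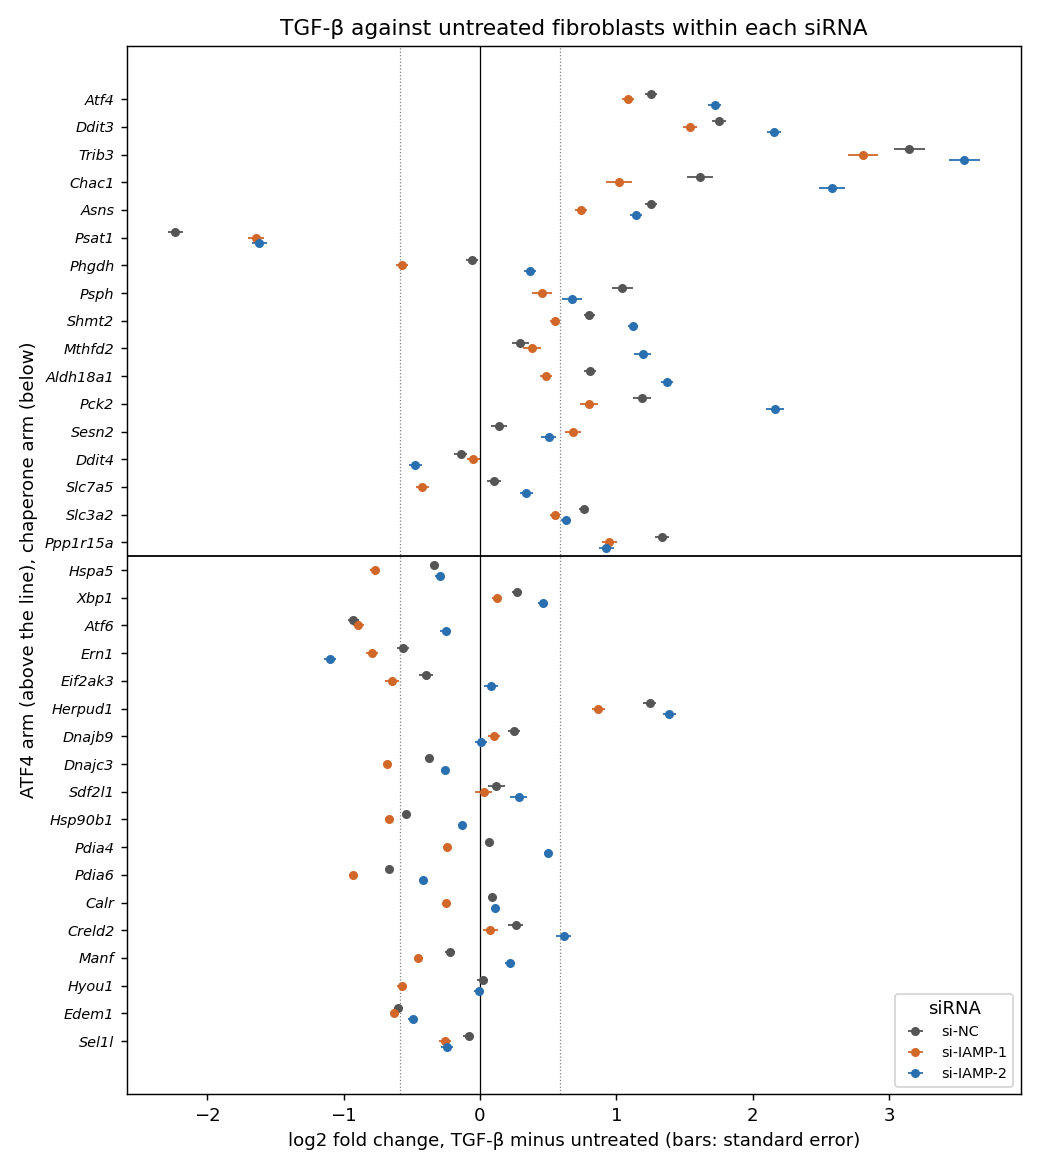
Log2 fold change for TGF-β minus untreated CFs (horizontal axis, with standard errors) of each of the 35 genes (vertical axis) within si-NC (grey), si-IAMP-1 (orange) and si-IAMP-2 (blue), with dotted lines at 1.5-fold. Trib3 lies furthest to the right at 2.81 to 3.55 and Psat1 furthest to the left at -2.23 to -1.62.

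Within the IAMP siRNAs most ATF4-arm calls were again higher, and the chaperone arm differed. With si-IAMP-1, 8 ATF4-arm genes were higher and 1 lower and 1 chaperone-arm gene was higher and 8 were lower, where 17.9% of all genes were higher and 15.2% lower, and the arm medians were 0.55 and -0.51. With si-IAMP-2, 12 ATF4-arm genes were higher and 1 lower and 2 chaperone-arm genes were higher and 1 was lower, where 18% and 15.3% of all genes were, and the arm medians were 1.12 and -0.001. Psat1 was the lower ATF4-arm gene and Herpud1 a higher chaperone-arm gene each time. Other genes moved with the table too. All 12 interferon-stimulated genes of a list were higher under TGF-β in si-NC, with a median log2 fold change of 2.96. Macrophage markers summed to 149.7 to 158 CPM per si-NC library under TGF-β beside 56.8 to 60.8 CPM untreated. Fibroblast markers summed to 14055 to 14655 CPM beside 8374 to 8511 CPM, but 2 of the 7 were higher and 2 lower. Endothelial markers summed to 83.3 to 86.3 CPM beside 47.9 to 53.0 CPM, with 4 of 5 higher and 1 lower. Over all genes, 17.7% were higher and 16.1% lower in si-NC. Cardiomyocyte markers summed to 5.54 to 6.27 CPM beside 90.6 to 98.2 CPM, and smooth muscle and pericyte markers to 63.0 to 64.4 CPM beside 101.5 to 115.6 CPM. Their part in the rise of the ATF4 arm was not tested.

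Under TGF-β the siRNAs were again set against si-NC. With si-IAMP-1, 16 of 17 ATF4-arm genes had a negative log2 fold change against si-NC and 14 of them were past the adjusted p (beside 11.4% of all genes), but only Chac1 and Psat1 fell by 1.5-fold (5 genes of the 35 without si-IAMP-1 replicate 1, and 4 without si-NC replicate 2), where 1.91% of all genes did (2.45% rose), and the median was -0.38. With si-IAMP-2, 13 of 17 were positive, the median was 0.10 and none was called, where 5.44% of all genes were lower. Chac1 stood at 15.5, 13.6 and 15.4 CPM with si-IAMP-1 and at 23.7, 21.2 and 21.5 CPM with si-IAMP-2, beside the 23.9, 23.4 and 23.6 CPM of si-NC. Trib3 stood at 22.9, 22.4 and 21.3 CPM and 33.4, 32.2 and 35.4 CPM with the 2 siRNAs, on either side of si-NC. Psat1 stood at 18.2, 17.2 and 18.3 CPM with si-IAMP-1, 1.53-fold below si-NC, and overlapped si-NC with si-IAMP-2 at 27.1, 26.7 and 25.6 CPM.

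The other ATF4-arm genes differed in where the siRNAs lay under TGF-β. Atf4 stood at 226, 224 and 214 CPM with si-IAMP-1 and 281, 284 and 279.8 CPM with si-IAMP-2. Asns stood at 107, 103 and 98.6 CPM and 162, 162 and 164 CPM, and Phgdh at 84.9, 75.96 and 75.9 CPM and 128, 122 and 119 CPM, so that si-IAMP-1 lay below si-NC for all 3, while si-IAMP-2 lay above it for Atf4 and Asns and overlapped it for Phgdh. Sesn2 and Ddit4 lay below si-NC with both siRNAs and were not called. Slc3a2 overlapped si-NC with si-IAMP-1 and lay above it with si-IAMP-2. Ddit3 lay above si-NC with both, at 93.5, 100.1 and 101 CPM and 88.9, 84.4 and 84.4 CPM. Ppp1r15a overlapped si-NC with both, at 61.3, 62.8 and 62.3 CPM and 65.6, 65.3 and 68.99 CPM.

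The direct comparison of the siRNAs under TGF-β gave 6 ATF4-arm genes higher with si-IAMP-2 (Mthfd2, Pck2, Psph, Asns, Phgdh and Trib3), Dnajb9 higher in the chaperone arm and no gene of the 35 lower, where 0.840% of all genes were higher and 3.12% lower. The median of the ATF4 arm for si-IAMP-2 minus si-IAMP-1 was 0.53 under TGF-β, beside -0.16 in untreated CFs and -0.31 under IL-17. The difference was 0.77 ± 0.06 for Mthfd2 and 0.75 ± 0.06 for Pck2. With si-IAMP-1, Mthfd2 stood at 35.8 ± 3.60 CPM and Pck2 at 53.7 ± 4.97 CPM, beside 61.04 ± 2.00 and 90.5 ± 2.50 CPM with si-IAMP-2.

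The chaperone arm had a median above 0 against si-NC under TGF-β with both siRNAs. With si-IAMP-2 all 18 genes were positive, 17 were past the adjusted p (beside 15.1% of all genes) and Hspa5 and Dnajb9 rose, where 2.07% of all genes did, and the median was 0.26. With si-IAMP-1 the median was 0.18 and no gene of the arm was called. Hspa5 stood at 704, 668 and 676 CPM with si-IAMP-1 and at 972, 945 and 928 CPM with si-IAMP-2, both above si-NC, and only the second reached 1.5-fold (0.63 ± 0.03 beside 0.15 ± 0.03 on the log2 scale). Sdf2l1 stood at 25.9, 24.7 and 26.6 CPM and 27.2, 23.4 and 24.2 CPM, Creld2 at 45.9, 43.9 and 51.8 CPM and 54.7, 50.9 and 49.99 CPM, and Xbp1 at 141, 146 and 143 CPM and 176, 172 and 173 CPM with si-IAMP-1 and si-IAMP-2. Herpud1 stood at 81.9, 78.04 and 73.00 CPM and 102, 95.6 and 102 CPM, and Atf6 at 75.02, 67.2 and 67.8 CPM and 72.4, 72.8 and 72.3 CPM, and none of these 5 genes was called.

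Whether an siRNA effect differed between TGF-β and untreated CFs was tested gene by gene in 1 fit of all 27 CF libraries. At the 2-fold difference asked for, 0 of 35 genes passed with either siRNA, where 2.31% and 4.95% of all genes did, and DESeq2 gave 0 as well. Of the 35, 30 had an unadjusted p under 0.05 with each siRNA, beside 28.9% of all genes with si-IAMP-1 and 37.3% with si-IAMP-2. By the adjusted p alone, 24 genes passed with a negative difference and 2 with a positive one with si-IAMP-1, and 6 and 21 with si-IAMP-2. Over all genes, 10.3% were negative and 9.20% positive with si-IAMP-1, and 15.3% and 14.2% with si-IAMP-2. Chac1 and Pck2 came nearest to the fold, at 0.97 ± 0.13 and 0.97 ± 0.09 on the log2 scale with si-IAMP-2, and Mthfd2 followed at 0.90 ± 0.09. With si-IAMP-1 the differences ran from -0.59 to 0.59, the highest being that of Psat1, 0.59 ± 0.08.

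Hearts held the same genes at other levels, set side by side here although hearts and CFs were normalized separately. Per kilobase of annotated exon, Calr, Hsp90b1 and Hspa5 led in untreated si-NC CFs at 378, 309.9 and 183 CPM per kb. In Het hearts Herpud1 led at 127 CPM per kb, beside 15.7 in CFs, and was followed by Hspa5 at 72.3 and Calr at 70.9. The enzymes of serine and asparagine synthesis were at the bottom of the heart range, with Psat1 at 0.391, Phgdh at 0.463 and Asns at 0.696 CPM per kb beside 30.2, 49.5 and 20.6 in CFs. Asns held 30 to 56 counts per heart.

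**Figure D5:**
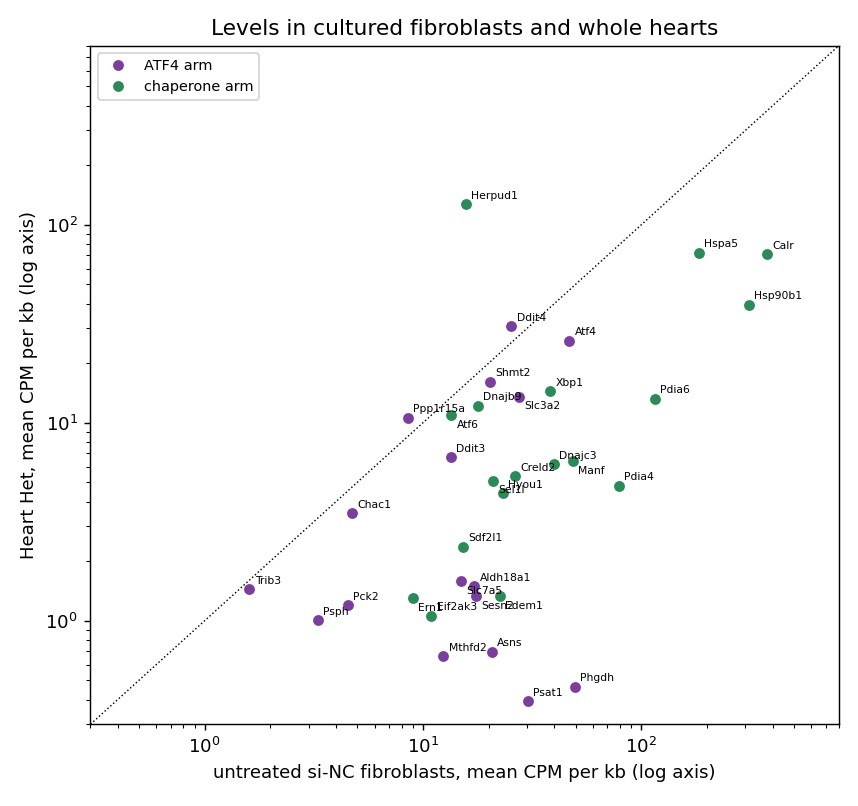
Mean CPM per kilobase of exon in untreated si-NC CFs (horizontal log axis) and in Het hearts (vertical log axis) for the 35 genes, coloured by arm, with a dotted line where the 2 are equal. Herpud1 lies above the line at 127 against 15.7, Psat1 and Phgdh lie lowest, and Ddit4 and Ppp1r15a are the only others above the line.

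None of the 35 genes was called between KO and Het hearts, where 0% of 16675 genes were called in edgeR. Of the 35, 4 had an unadjusted p under 0.05 (Slc7a5, Dnajb9, Chac1 and Atf6), beside 3.60% of all genes, and DESeq2 called none. The median log2 fold change was 0.04 in the ATF4 arm and 0.00 in the chaperone arm. Dnajb9 stood at 29.6, 32.3, 33.1 and 29.1 CPM in Het and 36.5, 34.97, 33.5 and 33.2 CPM in KO hearts. It was the only one of the 35 whose groups did not overlap, as for 2.37% of all genes, at a log2 fold change of 0.15 ± 0.06 (adjusted p = 1).

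The other genes named above overlapped between Het and KO hearts. Hspa5 stood at 296, 292, 318 and 318 CPM in Het and 306, 306, 288 and 309 CPM in KO hearts. Herpud1 stood at 346, 308, 293 and 241 CPM and 356, 357, 326 and 307 CPM. Atf6 stood at 101, 109, 94.03 and 101 CPM and 114, 113, 101 and 114 CPM. All but 1 of the KO values of Atf6 exceeded every Het value, and its log2 fold change was 0.13 ± 0.06. Xbp1 stood at 47.1, 42.2, 49.3 and 49.4 CPM in Het and 47.5, 48.1, 45.5 and 41.8 CPM in KO hearts, Sdf2l1 at 3.10, 1.83, 2.97 and 2.60 and 2.13, 1.99, 2.14 and 2.03 CPM, and Creld2 at 7.41, 6.79, 7.04 and 8.09 and 7.09, 6.84, 7.27 and 7.94 CPM. In KO hearts Sdf2l1 was nearly even, while Het hearts spread over a wider range.

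In the ATF4 arm, Atf4 stood at 56.1, 66.2, 56.4 and 65.96 CPM in Het and 61.4, 69.6, 50.1 and 70.8 CPM in KO hearts, and Ddit3 at 13.9, 10.8, 9.38 and 11.7 and 8.78, 9.50, 10.7 and 10.6 CPM. Chac1 stood at 5.57, 7.14, 5.98 and 4.21 CPM in Het and 8.30, 6.93, 7.27 and 6.56 CPM in KO hearts, Trib3 at 3.89, 1.78, 3.48 and 3.09 and 2.91, 3.46, 3.62 and 2.55 CPM, and Ppp1r15a at 29.7, 29.6, 33.9 and 31.5 and 30.3, 33.03, 24.1 and 31.1 CPM. Psat1, Asns and Phgdh reached at most 2.32 CPM in any heart. Psat1 stood at 1.55, 1.61, 1.57 and 1.92 CPM in Het and 1.87, 2.03, 2.05 and 1.68 CPM in KO hearts, Asns at 1.76, 1.92, 1.70 and 2.24 and 1.39, 2.32, 1.81 and 1.29 CPM, and Phgdh at 0.712, 1.13, 1.40 and 1.36 and 1.70, 1.27, 1.93 and 0.863 CPM. The log2 fold changes were 0.20 ± 0.13 for Psat1, -0.16 ± 0.19 for Asns and 0.32 ± 0.27 for Phgdh, and the groups overlapped in each.

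Other genes of the same pathways, from lists of pathway members, were counted beside the 35. Of 44 further ER chaperone and unfolded protein genes, 6 were higher and 1 lower with si-IAMP-1 in untreated CFs and 8 were higher and 1 lower under IL-17, at medians of 0.28 and 0.33 on the log2 scale, where 5.42% and 5.58% of all genes were higher and 6.65% and 7.97% lower. With si-IAMP-2 the counts were 2 higher and 2 lower in untreated CFs and 2 higher and 3 lower under IL-17, all below the shares of all genes (8.00% and 13.1%, then 8.06% and 13.7%). Under TGF-β none was called with si-IAMP-1 and 1 was higher with si-IAMP-2, where 2.07% of all genes were. Spcs2, a subunit of the signal peptidase, rose with both siRNAs in untreated CFs, at log2 fold changes of 0.65 and 0.90, and again under IL-17, at 0.68 and 0.94, where Ssr2 of the translocon rose as well, at 0.60 and 0.73.

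Of 43 further ATF4-arm genes, 42 were tested in untreated CFs, of which 6 were higher and 3 lower with si-IAMP-1 and 4 higher and 6 lower with si-IAMP-2. The shares of all genes were 5.42% and 6.65% with si-IAMP-1 and 8.00% and 13.1% with si-IAMP-2, and the counts with si-IAMP-2 are near them. Under IL-17, 7 of 42 were higher and 3 lower with si-IAMP-1, where 5.58% and 7.97% of all genes were. With si-IAMP-2, 5 were higher and 6 lower, where 8.06% and 13.7% of all genes were. The list medians with si-IAMP-1 and si-IAMP-2 were 0.04 and 0.05 (untreated), 0.10 and 0.07 (IL-17) and -0.12 and 0.18 (TGF-β). Cebpb, which encodes a partner of ATF4, Nfil3, a bZIP repressor, and Ndrg1 rose with both siRNAs in untreated CFs, Cebpb at log2 fold changes of 1.19 and 1.62, Nfil3 at 0.80 and 1.38 and Ndrg1 at 0.98 and 0.91. Under IL-17, Ndrg1 and Cth rose and Cbs fell with both, Cth and Cbs being the enzymes of transsulfuration, with log2 fold changes of 1.20 and 0.97 for Ndrg1, of 0.82 and 1.11 for Cth, and of -1.07 and -1.43 for Cbs. Under TGF-β, Slc7a11, the cystine transporter, rose with both at 1.15 and 1.39, and Stc2, a secreted glycoprotein, fell with both at -0.59 and -0.60. For TGF-β minus untreated within si-NC, 17 of the 43 were higher and 4 lower, where 17.7% and 16.1% of all genes were, with a median of 0.33. Of 11 eIF2 kinases, phosphatase subunits and partners, at most 1 was called with either siRNA in any table, and 2 were lower with TGF-β in si-NC, Eif2ak4 (GCN2) and Ppp1r15b at -0.77 and -0.87, both named after their values were seen. In hearts 0 genes of these lists were called.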

How the data were processed

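RNA-Seq libraries of adult mouse CFs (27) and of hearts (8) were analysed. Per the study's methods, reads were trimmed with Cutadapt, aligned to GRCm38 with HISAT2 and assembled with StringTie. The deposited CF tables look like estimated counts per gene from StringTie, in which 1 read pair may stand for up to 6. This was inferred from the values, since 6 was the most frequent value of genes seen in 1 library only. The deposited heart table holds whole-number counts per gene. The code names of the siRNAs are tied to si-IAMP-1 and si-IAMP-2 in the labels of the TGF-β libraries only, and the same meaning was taken for the other tables. Counts were rounded and fitted with edgeR 4.0.16 (TMM, filterByExpr, robust quasi-likelihood F test), each table on its own and, for stimuli and interactions, all 27 CF libraries together. The fits were tested on simulated data. CPM used the total of the genes passing the filter, scaled by TMM factors, over all 27 CF libraries together and over hearts apart. CPM per kb used the annotated exon length (GENCODE). Floors of 18 estimated counts and 3 counts cover counting error only. All 35 genes were accounted for. Values in every library were given for 13 genes fixed by name, for those called with both siRNAs in at least 2 CF tables, and for the highest and lowest mean of each arm. From other lists at most 2 genes that rose and 2 that fell with both siRNAs of a table were named. Ndrg1 in untreated CFs, and Eif2ak4 and Ppp1r15b for TGF-β in si-NC, were named beyond this rule. The genes and lists were chosen with earlier results of these data known. Alternatives were DESeq2 1.42.0, RLE size factors, other filters, fold thresholds and sample sets, division by 6, a replicate block and leaving out each library.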

Additional observations from a re-analysis of the deposited data

Results flagged for a closer look

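In hearts, where each group had 4 libraries, the 35 genes were searched for a library whose distance to its nearest neighbour took up more of the range of its group than the 95% critical value of Dixon's test. Of 70 groups, 4 held such a library, and chance alone gives about 1 in 20. Psat1 stood at 1.92 CPM in 1 Het heart and at 1.55 to 1.61 CPM in the others. Sesn2 stood at 3.97 CPM in 1 KO heart beside 4.70 to 4.77 CPM, Hspa5 at 288 CPM in 1 KO heart beside 306 to 309 CPM, and Atf6 at 101 CPM in 1 KO heart beside 113 to 114 CPM. CF groups of 3 libraries were not searched.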

How the results depend on the processing

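No gene named with its values in every library changed direction past the threshold under any alternative run. Of the arm medians, 4 near 0 changed sign, those of the ATF4 arm for si-IAMP-1 under IL-17 and for IL-17 minus untreated in si-NC, and those of the chaperone arm for TGF-β minus untreated in si-IAMP-2 and for KO minus Het hearts. At 2-fold in place of 1.5-fold, the genes called with si-IAMP-1 and si-IAMP-2 against si-NC and for si-IAMP-2 minus si-IAMP-1 numbered 1, 2 and 2 in untreated CFs, 1, 0 and 1 under IL-17 and 0, 0 and 1 under TGF-β, and those for TGF-β minus untreated numbered 10 in si-NC and 5 in si-IAMP-1. At 1.5-fold in place of 2-fold, the siRNA effect differed between TGF-β and untreated CFs for 4 genes with si-IAMP-1 and 5 with si-IAMP-2, and with si-IAMP-2 for 1 gene at a minimum of 10 counts or after division by 6. Without the sensors and Xbp1, the chaperone arm had medians of 0.47 and 0.17 (untreated), 0.46 and 0.20 (IL-17) and 0.21 and 0.30 (TGF-β) with si-IAMP-1 and si-IAMP-2, 0.10 for si-IAMP-2 minus si-IAMP-1 under TGF-β, and -0.033 in si-NC and -0.35 in si-IAMP-1 for TGF-β minus untreated. At a minimum of 10 counts, the medians for TGF-β minus untreated in si-IAMP-2 were 1.16 in the ATF4 arm and 0.034 in the chaperone arm.

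Same-numbered CF libraries correlated at -0.20 to 0.14 (untreated), -0.09 to 0.17 (IL-17) and -0.44 to 0.12 (TGF-β). Differently numbered ones correlated at -0.13 to 0.30, -0.17 to 0.12 and -0.18 to 0.41, so no pairing by number was seen. With the replicate block the genes called for TGF-β minus untreated in si-IAMP-1 went from 18 to 20, the ATF4 arm medians for that contrast were 0.60 in si-IAMP-1 and 0.85 in si-NC, and no other count moved. In hearts no block could be fitted, because the heart columns carry no replicate number. Leaving out each library in turn gave 2 to 5 called genes for si-IAMP-1 under TGF-β and 0 to 1 for the si-IAMP-2 difference between TGF-β and untreated CFs (1 without untreated si-IAMP-2 replicate 2 or 3, untreated si-NC replicate 2 or TGF-β si-NC replicate 1). Psat1 with si-IAMP-1 under TGF-β lost its call, at -0.57, without si-NC replicate 3. The ATF4 arm median then ranged from -0.36 to -0.32 for untreated si-IAMP-2, from -0.0086 to 0.059 and from -0.36 to -0.31 for si-IAMP-1 and si-IAMP-2 under IL-17, from -0.42 to -0.35 for si-IAMP-1 under TGF-β, from -0.19 to -0.070 (untreated), -0.32 to -0.17 (IL-17) and 0.50 to 0.56 (TGF-β) for si-IAMP-2 minus si-IAMP-1, and from 0.074 to 0.15 for IL-17 minus untreated in si-IAMP-1. The chaperone arm median ranged from 0.24 to 0.28 for si-IAMP-2 under TGF-β, from 0.10 to 0.15 for si-IAMP-2 minus si-IAMP-1 under TGF-β and from -0.19 to -0.15 for TGF-β minus untreated in si-NC.

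Trib3 held 277 to 469 and Chac1 382 to 987 estimated counts in a CF library outside TGF-β, the fewest of the 35 genes. In hearts the enzymes of serine and asparagine synthesis rested on few counts, and 0 calls there do not show equal levels.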
